A study of Mus musculus with 4 samples.

Results

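Leukocytes carry their own set of proteins for building actin filaments and for switching small GTPases, and 10 genes of this set are described here: Was, Nckap1l, Coro1a, Rac2, Dock2, Vav1, Cyth4, Arhgdib, Sla and Fermt3. They were taken as a gauge of leukocyte transcripts in a tumour, and all 10 were found among the 17574 genes with a symbol. The choice was made with earlier results of the same tumours known, among them that Was and Cyth4 were lower after the antibody. Their difference between treated and control tumours is therefore given as a description, and nothing is read from its p-values.

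The tumours were grown from SCC7, a mouse squamous carcinoma line of the head and neck type, injected under the skin of the back of C3H/HeN mice labelled as wild type. Mice of the anti-CD71 group were given, on days 6 and 9, an antibody that binds CD71, a receptor for transferrin that brings iron into cells. What the control group received is not given in the sources used here. Tumours of both groups were taken on day 10, and bulk RNA sequencing gave 2 anti-CD71 and 2 control libraries. The labels do not say whether each library came from a separate mouse, so p-values measure only the spread between these libraries.

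Values are TPM, a measure scaled to the same total in each library that allows for transcript length, so that levels of different genes can be compared. The 2 controls and anti-CD71 replicate 2 each listed 59881 transcripts. The file of anti-CD71 replicate 1 held 13586 of these transcripts, and those not in it were treated as missing, not as 0. All 10 genes could be compared between anti-CD71 replicate 2 and the controls, and 4 of them (Was, Cyth4, Vav1 and Sla) in both anti-CD71 libraries. The read depth behind TPM is unknown, so no counting interval is given. The cell type is labelled as head and neck squamous carcinoma, while 10 of 12 keratinocyte and hair markers were listed at 0 in each control. Their summed level was 257.3 TPM in anti-CD71 replicate 2, against 0.2 and 0.1 TPM in the controls. With keratinocyte and hair genes left out and TPM rescaled, the median log2 difference of the 10 genes was -0.87 over the 3 complete libraries. That of the 4 genes was -0.77 over 4 libraries. With all genes these medians were -0.87 and -0.78. The rescaling multiplies every remaining gene of a library by the same factor, so it bears only on the share of TPM taken up. It cannot show whether other cells differed along with these markers, and that was not tested.

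In these cells a surface receptor or integrin activates exchange factors, which load small GTPases with GTP, and the loaded GTPase then drives actin assembly. WASP, the product of Was, and the WAVE complex, which contains the Nckap1l product, switch on the ARP2/3 complex that branches actin filaments. Loss of such genes in humans or mice leaves leukocytes that migrate, adhere or signal poorly. Close paralogues do similar work in most other cell types, so the leukocyte forms are taken here to come mainly from blood cells. That was not tested in these tumours. In bulk tumour RNA, fewer leukocytes and less RNA per leukocyte cannot be told apart.

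All 10 genes were lower in anti-CD71 replicate 2 than in both controls, at between 49.7% (Was) and 66.8% (Arhgdib) of the control mean. The 10 genes summed to 515.03 TPM in anti-CD71 replicate 2, against 818.92 and 937.64 TPM in the controls. In a further comparison with anti-CD71 replicate 1, the 4 genes that could be followed there were again below both controls. Over the 3 complete libraries 42.5% of the 11982 tested genes lay below both controls in anti-CD71 replicate 2, and over 4 libraries 31.1% of 1563 tested genes were below both controls in both anti-CD71 libraries.

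Among the genes of actin assembly, Was had 11.99 and 10.14 TPM in the anti-CD71 libraries, against 19.02 and 21.82 TPM in the controls. The groups did not overlap, and the lower control exceeded the higher anti-CD71 library. Was lies on chromosome X from 8081466 to 8090491 in GRCm38.p6, the build of all coordinates here. Nckap1l, the leukocyte subunit of the WAVE complex also called HEM1, had 33.4 TPM in anti-CD71 replicate 2, against 62.64 and 67.06 TPM in the controls. Anti-CD71 replicate 2 stood apart from a close pair of controls. Nckap1l lies on chromosome 15 from 103453783 to 103502860. Coro1a, a coronin that binds actin and is needed for T cell survival, had 112.97 TPM in anti-CD71 replicate 2, against 191.84 and 228.01 TPM in the controls. The controls differed more from each other here, and anti-CD71 replicate 2 was below both. Coro1a lies on chromosome 7 from 126699774 to 126704816.

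Among the GTPases and their regulators, Rac2, the Rac GTPase of blood cells that neutrophils need to move and to fire their oxidase, had 25.66 TPM in anti-CD71 replicate 2, against 44.87 and 55.76 TPM in the controls. Its controls were the furthest apart of the 10 genes on the log2 scale, and anti-CD71 replicate 2 was still below both. Dock2, an exchange factor that loads Rac in lymphocytes and neutrophils, had 14.53 TPM in anti-CD71 replicate 2, against 26.16 and 27.74 TPM in the controls. Vav1, another exchange factor for Rac, which acts below antigen receptors, had 14.9 and 12.72 TPM in the anti-CD71 libraries, against 20.82 and 22.81 TPM in the controls, over the transcripts that carry 99.2% of its TPM. Vav1 did not overlap between the groups. Cyth4, a cytohesin that loads ARF GTPases, had 50.45 and 45.39 TPM in the anti-CD71 libraries, against 78.02 and 87.62 TPM in the controls. Both anti-CD71 libraries were below both controls.

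Arhgdib, which holds small GTPases in an inactive state in the cytosol, was the most abundant of the 10, with 222.12 TPM in anti-CD71 replicate 2, against 308.35 and 356.49 TPM in the controls. It differed least among the 10. Rac2 and Cyth4 are close neighbours on chromosome 15, from 78559169 to 78572783 and from 78597047 to 78622019, with 24263 bases and 1 predicted gene between them. Dock2 lies on chromosome 11 from 34226815 to 34783905, Vav1 on chromosome 17 from 57279100 to 57329236, and Arhgdib on chromosome 6 from 136923655 to 136941899. In all, 4 of the 10 genes are on chromosome 15.

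Of the adaptors, Sla, which limits antigen receptor signalling by helping to remove the receptor, had 9.5 and 8.87 TPM in the anti-CD71 libraries, against 15.56 and 17.31 TPM in the controls, over the transcripts that carry 92.2% of its TPM. The groups did not overlap, and the 2 anti-CD71 libraries were close to each other. Fermt3 encodes kindlin-3, which binds the tails of integrins and switches them on in leukocytes and platelets. It had 28.76 TPM in anti-CD71 replicate 2, against 49.94 and 51.22 TPM in the controls, which were nearly equal. Sla lies on chromosome 15 from 66780819 to 66831829 and Fermt3 on chromosome 19 from 6998958 to 7019469.

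**Figure D1:**
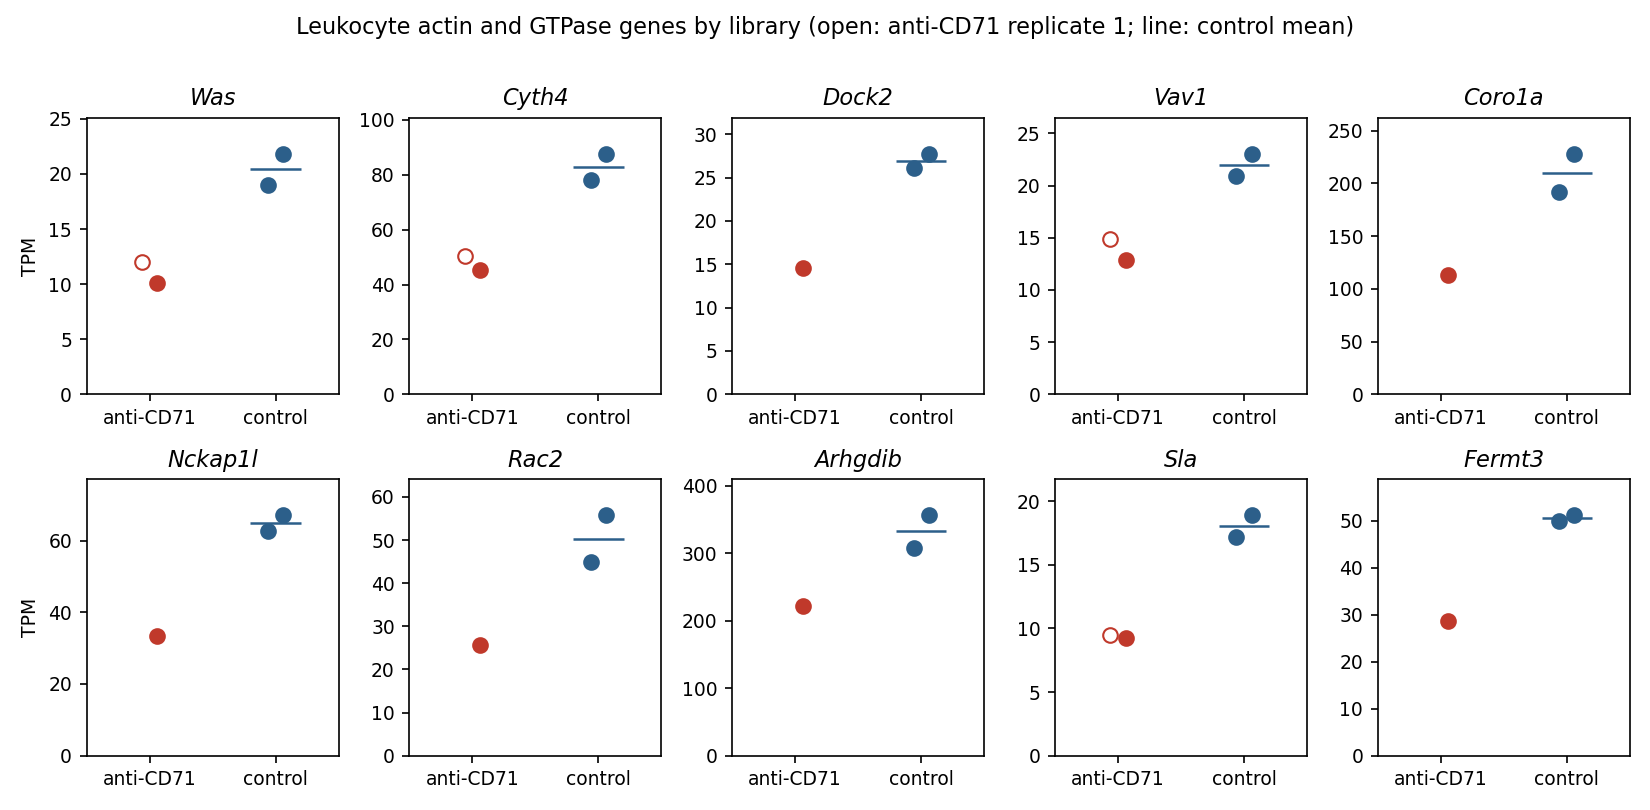
TPM of each of the 10 genes in the anti-CD71 libraries (red; open circle replicate 1, filled circle replicate 2) and the controls (blue; line, mean of 2), each axis starting at 0. Open circles are drawn for the 4 genes followed in replicate 1 (listed transcripts), and every red point is below both blue points.

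On the log2(TPM + 1) scale the differences between anti-CD71 replicate 2 and the controls ran from -0.94 to -0.58, with a median of -0.87 over the 10 genes and of -0.01 over all tested genes. The difference was -0.94 for Was (SE 0.12), Nckap1l (SE 0.09) and Rac2 (SE 0.15), and -0.58 for Arhgdib (SE 0.10). The other 6 lay between -0.89 (Sla, SE 0.11) and -0.73 (Vav1, SE 0.11). The SD of the difference over the 10 genes was 0.11. The genes were measured in the same libraries, so this SD does not measure spread between libraries. By limma, 9 of the 10 genes had an adjusted p under 0.05 over the 3 complete libraries, Arhgdib being the exception, where 2.86% of all tested genes were called (2.39% lower and 0.476% higher). Because the genes were chosen on this contrast, nothing is read from that count. It was 0 with no filter on low values, with a filter of 1 TPM in 1 library and with no trend in the variance prior.

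Over both anti-CD71 libraries, the differences were -0.83 for Was (SE 0.12), -0.78 for Cyth4 (SE 0.09), -0.77 for Sla (SE 0.10) and -0.63 for Vav1 (SE 0.11), with 2 libraries in each group. The median was -0.78 for these 4 genes and -0.01 for all 1563 tested genes. Mean levels are given with the SD over n = 2 libraries in each group. For Was they were 11.07 ± 1.31 TPM in anti-CD71 libraries and 20.42 ± 1.98 TPM in controls. For Cyth4 they were 47.92 ± 3.58 TPM in anti-CD71 libraries and 82.82 ± 6.79 TPM in controls. For Vav1 they were 13.81 ± 1.54 TPM in anti-CD71 libraries and 21.82 ± 1.41 TPM in controls. For Sla they were 9.18 ± 0.45 TPM in anti-CD71 libraries and 16.43 ± 1.24 TPM in controls. All 4 were called by limma, where 4.29% of tested genes were called (3.45% lower and 0.832% higher), and this count too is a description only. It was 0 without control replicate 1 and 0 without control replicate 2, 1 without anti-CD71 replicate 2, and 0 with the alternatives of filter and trend named above, with any listed transcript counted, or with the replicate number as a block.

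Differences inside a group are also given as a description. They are not independent of the choice of the genes, which was made with results of these same libraries known. Between the controls, all 10 were higher in replicate 2 than in replicate 1, by 0.04 (Fermt3) to 0.31 (Rac2) on the log2 scale with a median of 0.15, while 53.9% of all tested genes were higher in replicate 2 and the median of all was 0.01. The 12 general leukocyte genes, such as Ptprc, which encodes CD45, moved the same way between the controls, 12 of 12 being higher in replicate 2 with a median of 0.16. Tested markers of other cells differed between the controls in both directions, with medians of 0.31 for macrophages, 0.03 for T cells, 1.23 for fibroblasts, -0.72 for neutrophils, -1.03 for mast cells and -1.88 for muscle. Between the anti-CD71 libraries, the 4 genes followed in both were lower in replicate 2 than in replicate 1, by between -0.22 (Was) and -0.09 (Sla) on the log2 scale, where 35.3% of the 1563 genes were lower and the median was 0.05. With 2 libraries a group, these are descriptions of single pairs of libraries.

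Among the 10 genes, the share of summed TPM differed most, in percentage points, for Arhgdib. Arhgdib held 43.1% of their summed TPM in anti-CD71 replicate 2, against 37.7% and 38.0% in the controls. Coro1a held 21.9% in anti-CD71 replicate 2, against 23.4% and 24.3% in the controls. Cyth4 followed, with 8.8% in anti-CD71 replicate 2 and 9.5% and 9.3% in the controls. Sla and Was were lowest, at 1.8% and 2.0% in anti-CD71 replicate 2 and between 2.0% and 2.3% in the controls. Relative to Ptprc in the same library, Was stood at 0.345 TPM per TPM of Ptprc in anti-CD71 replicate 2, against 0.355 and 0.363 in the controls. The same ratio for Rac2 was 0.873 in anti-CD71 replicate 2, against 0.838 and 0.927 in the controls, so that anti-CD71 replicate 2 lay between the controls. For Arhgdib it was 7.56 in anti-CD71 replicate 2, against 5.76 and 5.93 in the controls. Arhgdib thus stood higher relative to Ptprc and to the other 9 genes in anti-CD71 replicate 2 than in either control. It was not alone in its ratio to Ptprc, as Cyth4, Dock2, Vav1, Coro1a and Fermt3 were also above both controls there. For Cyth4 the ratio was 1.54 in anti-CD71 replicate 2, against 1.46 in each control. For Vav1 it was 0.436 in anti-CD71 replicate 2, against 0.391 and 0.383 in the controls. The picture depends on the reference, as Ptprc is a single gene. The median of the 10 genes was also set against that of the 12 general leukocyte genes on the log2(TPM + 1) scale. The difference was -0.44 in anti-CD71 replicate 2, against -0.34 and -0.31 in the controls, so it was lowest in anti-CD71 replicate 2. No test was made of these ratios or of this difference.

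Transcript values showed which RefSeq forms carried these levels, as split by the program that made the TPM, which is not given in the sources used here. Was and Rac2 each had 1 listed transcript. The main Cyth4 transcript, NM_028195, had 40.81 and 37.22 TPM in the anti-CD71 libraries, against 68.1 and 77.06 TPM in the controls. The second, XM_006521446, had 9.64 and 8.17 TPM in the anti-CD71 libraries, against 9.92 and 10.56 TPM in the controls, a much smaller gap. The 2 forms of Cyth4 thus differed in how far the groups lay apart. For Sla, NM_009192 had 5.22 and 6.57 TPM in the anti-CD71 libraries, against 12.49 and 14.44 TPM in the controls. Its other form, NM_001029841, had 4.2 and 2.22 TPM in the anti-CD71 libraries, against 2.58 and 2.53 TPM in the controls, and here the groups overlapped. Of Dock2, NM_033374 was listed for all 4 libraries, with 6.65 and 6.9 TPM in the anti-CD71 libraries, against 10.6 and 12.74 TPM in the controls. This transcript held 47.5% of the TPM of Dock2 in anti-CD71 replicate 2, against 40.5% and 45.9% in the controls, so it bears on part of the gene only. XM_017314862 held slightly more, with 6.95 TPM in anti-CD71 replicate 2, against 13.43 and 13.04 TPM in the controls, and was not listed for anti-CD71 replicate 1. The 2 Fermt3 transcripts were nearly even, NM_153795 holding 51.6% in anti-CD71 replicate 2, against 55.2% and 51.1% in the controls. The listed transcripts of Coro1a, Nckap1l and Arhgdib in anti-CD71 replicate 1 carried 0.4%, 6.7% and 0.5% of their genes' TPM, and no transcript of Rac2 or Fermt3 was listed there.

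**Figure D2:**
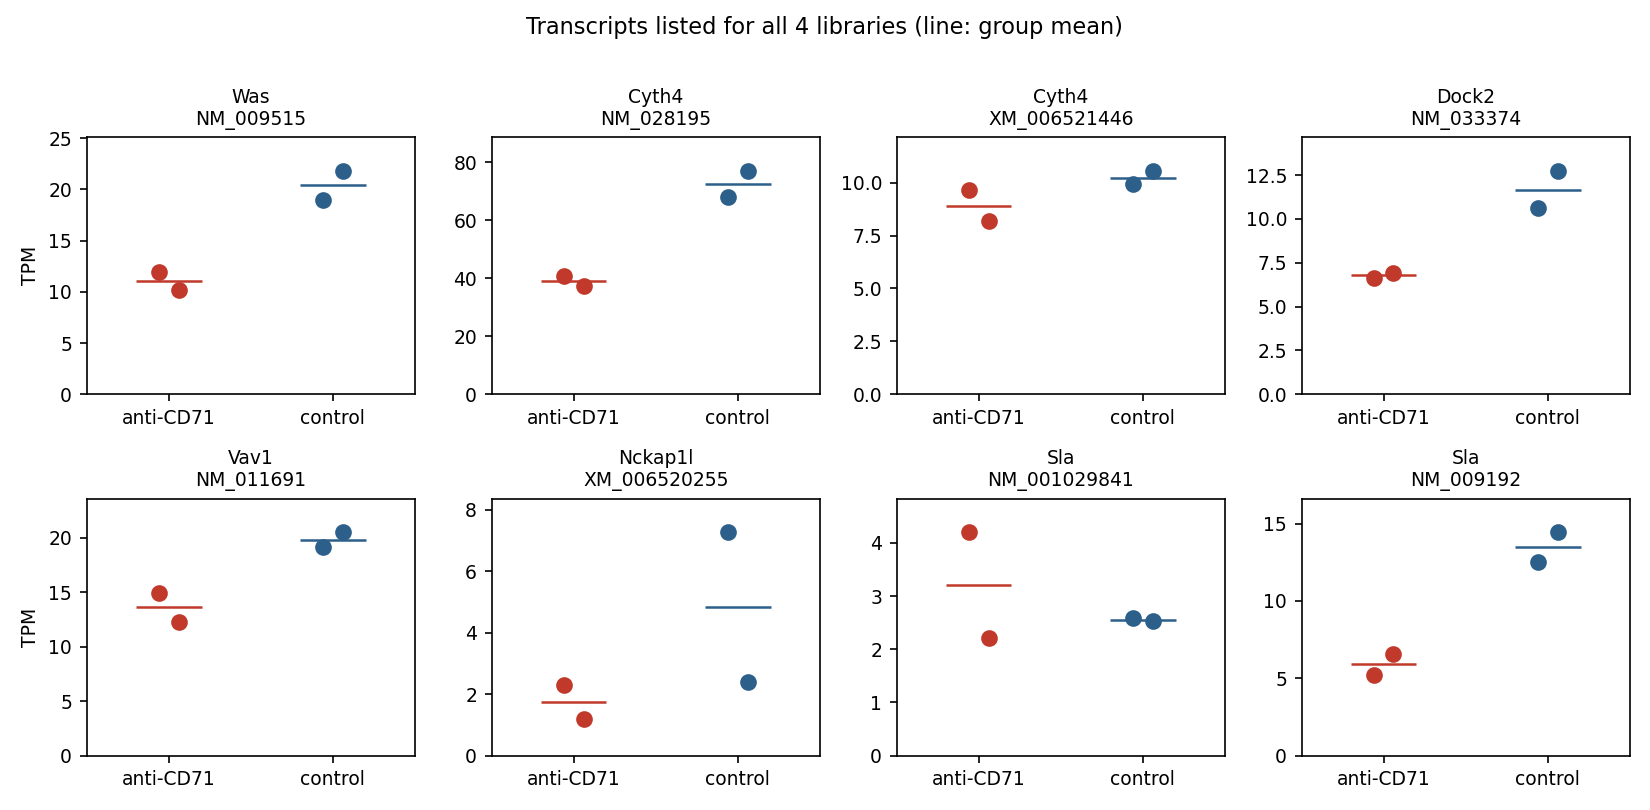
TPM of the 8 transcripts of these genes that were listed for all 4 libraries and had a control mean of at least 2 TPM, in anti-CD71 (red) and control (blue) libraries, with the group mean as a line. NM_001029841 of Sla overlaps between the groups, whereas NM_009515 of Was, NM_028195 of Cyth4, NM_033374 of Dock2, NM_011691 of Vav1 and NM_009192 of Sla do not. XM_006521446 of Cyth4 and XM_006520255 of Nckap1l do not overlap either, but only by a narrow gap. For XM_006520255 the anti-CD71 libraries had 2.3 and 1.19 TPM, against 7.27 and 2.4 TPM in the controls.

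Sequence shared with other genes was small for each of the 10. Of all 50-base words in their GENCODE M21 transcripts with a curated RefSeq match, 0% were found in another gene for Cyth4, Dock2, Vav1, Coro1a, Nckap1l and Sla. The share was 3.06% for Was, 3.12% for Arhgdib (with Pde6h), 1.58% for Fermt3 (with Trpt1) and 1.34% for Rac2. None of the shared words was in one of the closest paralogues listed next, so a read of that length from Rac2 differs from Rac1.

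Promoter windows of 300 bases, from 250 before the start of transcription to 50 from it on, were in the RefSeq table (GRCm38.p6) for 7 of the 10 genes, with 10 windows in all, and not for Nckap1l, Rac2 or Sla. The windows are shown because PU.1, a transcription factor of myeloid and B cells, and RUNX factors are known regulators of leukocyte genes. The PU.1 core GAGGAA, on either strand, was in 5 of the 10 windows and in 28.3% of all 32851 windows. The longer GAGGAAGT, which contains it, was in 2 of the 10 (Cyth4 and Vav1) and in 3.2% of all. The RUNX letters TGTGGT were in 3 of the 10 windows (Was, Arhgdib and Fermt3) and in 16.8% of all, the TATA box letters TATAAA in 1 (Arhgdib) and in 13.6% of all, and the GC box letters GGGCGG in 4 (both of Coro1a, and 1 each of Arhgdib and Vav1) and in 35.7% of all. These are matches of letters and do not show binding. Whether they bear on the difference between the groups was not tested.

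Below are the windows of the 4 genes with 1 start site and the PU.1 core, its letters in capitals, and of Fermt3, where capitals mark TGTGGT. Each is written 5′ to 3′ in the direction of transcription, from RefSeq. The first base of the core lies at offset 5 in Was, 28 in Cyth4 and -11 in Vav1, and at -164 and -9 in Dock2, where 0 is the first transcribed base. Windows are chrX:8090442-8090741 (minus strand) for Was, chr15:78596797-78597096 (plus) for Cyth4, chr17:57278850-57279149 (plus) for Vav1, chr11:34783856-34784155 (minus) for Dock2 and chr19:7019420-7019719 (minus) for Fermt3.
Was: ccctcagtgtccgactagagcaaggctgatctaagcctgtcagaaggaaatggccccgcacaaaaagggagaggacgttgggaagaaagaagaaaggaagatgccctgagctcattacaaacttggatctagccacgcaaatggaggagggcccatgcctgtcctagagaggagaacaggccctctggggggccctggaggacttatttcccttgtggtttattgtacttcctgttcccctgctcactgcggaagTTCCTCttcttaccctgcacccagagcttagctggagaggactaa
Cyth4: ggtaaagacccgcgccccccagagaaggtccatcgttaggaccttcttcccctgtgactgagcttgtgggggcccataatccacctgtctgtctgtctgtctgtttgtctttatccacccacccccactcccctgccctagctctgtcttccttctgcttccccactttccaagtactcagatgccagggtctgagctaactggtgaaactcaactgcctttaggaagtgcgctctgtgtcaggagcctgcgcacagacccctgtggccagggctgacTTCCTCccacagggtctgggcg
Vav1: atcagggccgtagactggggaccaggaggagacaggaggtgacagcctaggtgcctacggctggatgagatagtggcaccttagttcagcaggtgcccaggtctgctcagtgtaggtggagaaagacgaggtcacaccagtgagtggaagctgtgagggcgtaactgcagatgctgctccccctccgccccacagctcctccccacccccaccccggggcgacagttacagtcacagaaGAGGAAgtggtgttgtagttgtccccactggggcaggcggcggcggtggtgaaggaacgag
Dock2: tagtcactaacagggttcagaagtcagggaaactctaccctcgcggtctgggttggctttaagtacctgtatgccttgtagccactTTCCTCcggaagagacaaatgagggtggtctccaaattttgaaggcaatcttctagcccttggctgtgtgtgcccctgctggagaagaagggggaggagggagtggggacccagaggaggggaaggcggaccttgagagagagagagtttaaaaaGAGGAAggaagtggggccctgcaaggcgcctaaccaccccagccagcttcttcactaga
Fermt3: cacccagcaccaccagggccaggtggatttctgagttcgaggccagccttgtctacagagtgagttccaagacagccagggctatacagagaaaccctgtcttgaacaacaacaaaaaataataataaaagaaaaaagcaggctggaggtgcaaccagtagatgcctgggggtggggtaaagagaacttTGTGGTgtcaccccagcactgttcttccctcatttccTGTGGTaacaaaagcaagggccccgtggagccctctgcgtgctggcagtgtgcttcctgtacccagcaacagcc

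Each of the 10 genes has close paralogues, most of them used in many cell types, also listed with earlier results of these tumours known. None of the 16 tested paralogues was called by limma in the 3 complete libraries, with 3 (Cyth1, Dock1 and Fermt2) at an unadjusted p under 0.05, and their median log2 difference was -0.03. Arhgdig and Fermt1 were too low to test. A gene that misses the threshold is not shown to be equal between groups. Over 4 libraries 3 could be compared, and 0 were called, with 0 at an unadjusted p under 0.05: Cyth2 (log2 difference 0.08, SE 0.07), Coro1c (0.03, SE 0.08) and Fermt2 (0.16, SE 0.10).

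Wasl, the widely expressed relative of Was, had 23.33 TPM in anti-CD71 replicate 2, against 18.38 and 20.22 TPM in the controls (log2 difference 0.26, SE 0.11, adjusted p = 0.213). Rac1, the general Rac GTPase, had 451.67 TPM in anti-CD71 replicate 2, against 415.78 and 410.82 TPM in the controls (0.13, SE 0.06, adjusted p = 0.275). Nckap1, the general subunit of the WAVE complex, had 76.55 TPM in anti-CD71 replicate 2, against 72.53 and 73.31 TPM in the controls (0.07, SE 0.08, adjusted p = 0.621). Wasl, Rac1 and Nckap1 thus stood above both controls, while Was, Rac2 and Nckap1l stood below. Not all paralogues did so, as Cyth1, Dock1 and Coro1b were below both controls. Of the 16 tested paralogues, 9 had a log2 difference below 0. The scarcer Rac3 was at -0.15 (SE 0.15). Arhgdia, the widely expressed relative of Arhgdib, had 748.43 TPM in anti-CD71 replicate 2, within the controls at 753.81 and 731.56 TPM. Fermt2, the kindlin of adherent cells, had 75.75 and 89.31 TPM in the anti-CD71 libraries, against 72.94 and 73.6 TPM in the controls, over the transcripts listed in all 4.

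The coronin genes Coro1b and Coro1c differed by -0.21 (SE 0.09) and 0.10 (SE 0.08), and the exchange factor genes Dock1 and Dock5 by -0.25 (SE 0.09) and -0.01 (SE 0.10). The Vav genes Vav2 and Vav3 differed by -0.17 (SE 0.12) and -0.05 (SE 0.16). Of the cytohesins, Cyth1, which leukocytes also use, was at -0.39 (SE 0.09, adjusted p = 0.0916), Cyth3 at -0.18 (SE 0.08) and Cyth2 at 0.11 (SE 0.08). Sla2, itself a lymphocyte gene, was lowest at -0.56 (SE 0.24, adjusted p = 0.23), on 0.56 TPM in anti-CD71 replicate 2 and 1.18 and 1.43 TPM in the controls.

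Within a library, the leukocyte form as a share of its family does not depend on scaling. Was held 30.3% of the TPM of Was and Wasl in anti-CD71 replicate 2, against 50.9% and 51.9% in the controls. Nckap1l held 30.4% of its pair with Nckap1 in anti-CD71 replicate 2, against 46.3% and 47.8% in the controls. The leukocyte forms were thus near parity in the controls and the minor form in anti-CD71 replicate 2. Rac2 held 5.3% of Rac transcripts in anti-CD71 replicate 2, against 9.6% and 11.7% in the controls. Fermt3 held 24.1% of its family in anti-CD71 replicate 2, against 40.5% and 40.7% in the controls. The share of Sla within Sla and Sla2 was 94.3% in anti-CD71 replicate 2, against 93.6% and 93.0% in the controls, a similar share in each library for this pair of blood cell genes. For the other 5 families the share was 22.9% to 37.3% in anti-CD71 replicate 2 and 29.0% to 49.4% in the controls.

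**Figure D3:**
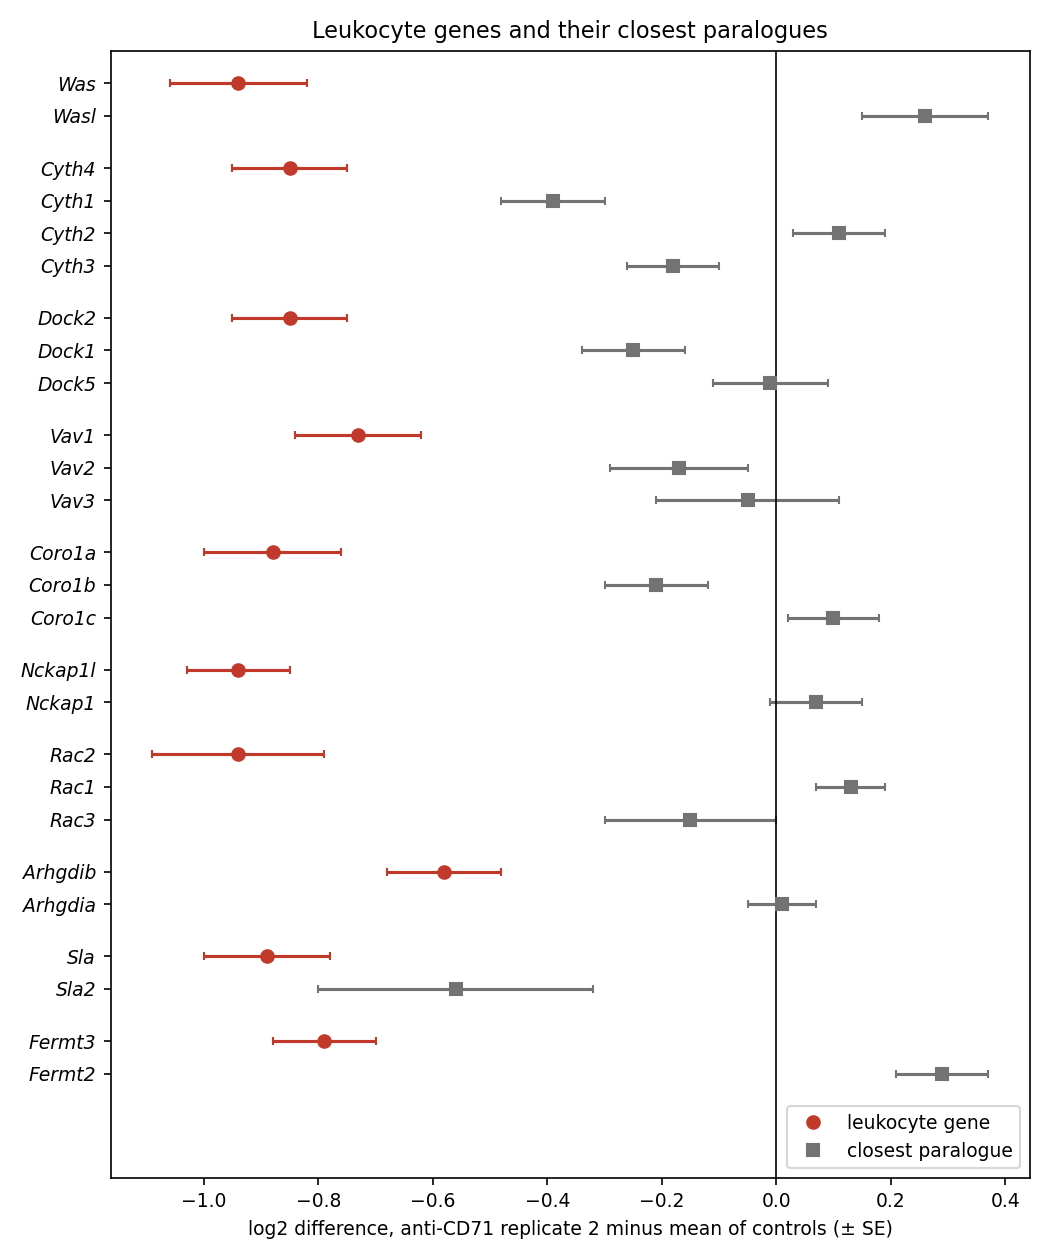
Log2 difference on the log2(TPM + 1) scale between anti-CD71 replicate 2 and the mean of 2 controls, with the SE from limma, for the 10 leukocyte genes (red circles) and their 16 tested paralogues (grey squares), grouped by family. The leukocyte genes lie between -0.94 and -0.58 and the paralogues between -0.56 and 0.29.

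Other genes of the same pathway were counted from lists of pathway genes, drawn up with earlier results of these tumours known and so not independent evidence of a direction, in the 3 complete libraries, where 2.39% of all tested genes were called lower. Of 42 other leukocyte actin and GTPase genes, limma called 13 lower and 0 higher, with a median log2 difference of -0.58. The largest called differences were in Fgd2, an exchange factor for Cdc42 (-1.11, SE 0.17, adjusted p = 0.0474), Myo1f, a myosin of immune cells (-1.11, SE 0.14, adjusted p = 0.0364), and Sash3, a lymphocyte adaptor (-1.06, SE 0.13, adjusted p = 0.0355). Myo1f fell to 15.46 TPM in anti-CD71 replicate 2, against 30.97 and 38.21 TPM in the controls. Of the list, 40 genes were below 0, and the highest was Apbb1ip, an adaptor that links Rap1 to talin, at 0.05. Elmo1, the partner of Dock2, was among those followed in all 4 libraries. Over its listed transcripts it fell to 7.18 and 6.46 TPM in the anti-CD71 libraries, against 11.78 and 12.76 TPM in the controls (log2 difference -0.76, SE 0.10, adjusted p = 0.0387). Coro7, a coronin, was also called lower by limma over 4 libraries (-0.65, SE 0.10, adjusted p = 0.0388). It was not called over the 3 complete libraries (-0.62, SE 0.12). Elmo1, Coro7, Apbb1ip and Cd53 were named after their values were seen.

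The machinery that these proteins act on was measured apart. Of 16 genes of the WAVE and ARP2/3 complexes, limma called 0 lower and 0 higher, with 6 at an unadjusted p under 0.05 and a median of -0.06. The smallest p-values were those of Cyfip2 (-0.84, SE 0.18, adjusted p = 0.0815), a WAVE subunit, and of the ARP2/3 subunit genes Arpc3 (-0.28, SE 0.07, adjusted p = 0.0907) and Arpc5 (0.24, SE 0.06, adjusted p = 0.115). Cyfip2 had 1.57 TPM in anti-CD71 replicate 2, against 3.3 and 3.9 TPM in the controls, whereas Arpc5 had 360.07 TPM in anti-CD71 replicate 2, against 303.11 and 307.42 TPM in the controls. These subunits thus lay on both sides of the controls.

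Upstream of the GTPases, 4 of 10 integrin and adhesion genes were called lower and 0 higher, with a median of -0.70. Itgal, the alpha chain of LFA-1, fell to 5.83 TPM in anti-CD71 replicate 2, against 13.8 and 17.29 TPM in the controls (-1.27, SE 0.16, adjusted p = 0.0339). Selplg, the selectin ligand of leukocytes, fell by 0.95 on the log2 scale (SE 0.11, adjusted p = 0.0288) and Itgam, the alpha chain of Mac-1, by 0.81 (SE 0.09, adjusted p = 0.0288). Of 18 kinase, phosphatase and adaptor genes next to the receptors, 6 were called lower and 0 higher, with all 18 below 0 and a median of -0.72. The largest called were Lcp2, the adaptor SLP-76 that brings Vav1 to the receptor (-0.95, SE 0.11, adjusted p = 0.0316), Pik3cg, a lipid kinase of leukocytes (-0.88, SE 0.13, adjusted p = 0.0431), and Ptpn6, the phosphatase SHP-1 (-0.87, SE 0.13, adjusted p = 0.0474).

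Of 12 general leukocyte genes, 10 were called lower and 0 higher, with a median of -0.76. Cd52 fell to 222.81 TPM in anti-CD71 replicate 2, against 503.38 and 609.02 TPM in the controls (-1.31, SE 0.12, adjusted p = 0.0249). Laptm5, a lysosomal protein gene of blood cells, fell by 1.03 (SE 0.12, adjusted p = 0.0316), and Ptprc fell to 29.4 TPM in anti-CD71 replicate 2, against 53.53 and 60.15 TPM in the controls (-0.93, SE 0.10, adjusted p = 0.029). Cd53, a leukocyte tetraspanin gene, was called by limma over 4 libraries (-0.45, SE 0.08, adjusted p = 0.0492). It was not called over the 3 complete libraries (-0.5, SE 0.09). Over all 6 lists together, paralogues included, 33 of 114 tested genes were called lower and 0 higher in the 3 complete libraries, and 3 of 14 lower and 0 higher (Elmo1, Coro7 and Cd53) over 4 libraries. The count of 33 was 0 with no filter on low values, with a filter of 1 TPM in 1 library and with no trend. The count of 3 was 0 without either control and without anti-CD71 replicate 2. With median scaling the calls over 4 libraries were 19 higher and 37 lower among all genes, against 13 higher and 54 lower as deposited.

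**Figure D4:**
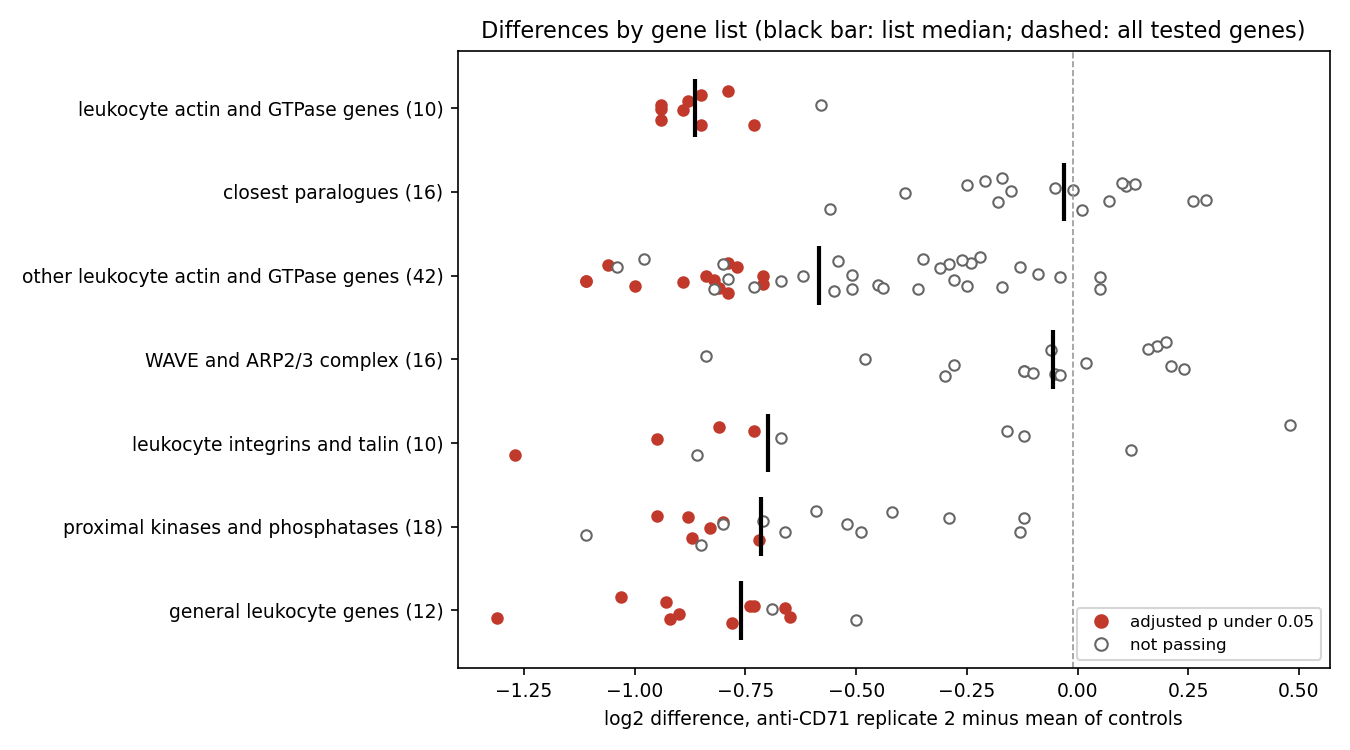
Log2 difference on the log2(TPM + 1) scale between anti-CD71 replicate 2 and the mean of 2 controls for each tested gene of 7 lists, with the number of tested genes in brackets; filled points had an adjusted p under 0.05 by limma, black bars are list medians and the dashed line is the median of all 11982 tested genes. The list medians run from -0.87 for the 10 genes described here to -0.03 for their closest paralogues.

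The markers of separate leukocyte types did not all differ alike. The 8 macrophage markers, all detected, summed to 1582.8 TPM in anti-CD71 replicate 2, against 3197.3 and 3981.9 TPM in the controls, with 5 of 8 called lower. The 8 natural killer and cytotoxic markers summed to 59.3 TPM in anti-CD71 replicate 2, against 246.6 and 237.7 TPM in the controls. The 8 T cell markers found summed to 7.9 TPM in anti-CD71 replicate 2, against 16.7 and 18.5 TPM in the controls. All 3 sums were below both controls. In anti-CD71 replicate 1, 2 of the natural killer and cytotoxic markers could be followed, and 0 of 2 were called over 4 libraries, with 1 at an unadjusted p under 0.05. Gzmb, a granzyme of killer cells, had 79.54 and 27.62 TPM in the anti-CD71 libraries, against 100.74 and 84.83 TPM in the controls, so the anti-CD71 libraries were far apart. The 6 neutrophil markers found summed to 508.9 TPM in anti-CD71 replicate 2, against 17.0 and 11.2 TPM in the controls, and all 6 were above both controls. Only 3 of these 6 could be tested, and their log2 differences ran from 0.4 (Csf3r) to 6.09 (S100a8). The neutrophil markers thus differed unevenly, and whether their sum follows the number of neutrophils was not tested. The mast cell markers summed to 160.6 TPM in anti-CD71 replicate 2, against 100.4 and 49.3 TPM in the controls. Of these 6 markers, 5 were above both controls and 1 was below both. The platelet markers summed to 191.9 TPM in anti-CD71 replicate 2, against 128.0 and 107.4 TPM in the controls. Of the 6 platelet markers 3 were above both controls and 2 below both, with Gp9 and Gp6 at 0 in anti-CD71 replicate 2. B cell markers stayed at or below 2.6 TPM in sum in every complete library. The 6 dendritic cell markers summed to 11.9 TPM in anti-CD71 replicate 2, against 13.5 and 16.6 TPM in the controls. Of the types that are not leukocytes, the 7 erythroid markers found summed to 555.2 TPM in anti-CD71 replicate 2, against 1909.8 and 2149.9 TPM in the controls, and the 7 fibroblast markers to 774.3 TPM in anti-CD71 replicate 2, against 844.5 and 1181.2 TPM in the controls. Both sums were below the 2 controls, but single markers did not all follow. Of the 7 erythroid markers 3 were below both controls and 1 above both. Of the 7 fibroblast markers 3 were below both and 0 above both. The endothelial markers summed to 63.9 TPM in anti-CD71 replicate 2, against 77.6 and 77.2 TPM in the controls, the muscle markers to 93.4 TPM in anti-CD71 replicate 2, against 151.6 and 36.8 TPM in the controls, and the adipocyte markers to 110.2 TPM in anti-CD71 replicate 2, against 78.5 and 104.2 TPM in the controls. The leukocyte types whose summed markers were higher in anti-CD71 replicate 2 also use several of the 10 genes. The part of each type in the members' levels was not tested.

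A search for similar profiles took the 8580 genes whose TPM averaged 10 or more. The 5 outside these lists whose profile over the 3 complete libraries lay closest to the median profile of the 10 were Trem2, Fcgr4, Abcg1, Unc119 and BC028528, at distances of 0.008 to 0.034 in log2 units. Trem2, a lipid receptor of macrophages, had 62.56 TPM in anti-CD71 replicate 2, against 109.08 and 120.5 TPM in the controls. Fcgr4, a macrophage and neutrophil receptor for antibodies, had 36.64 TPM in anti-CD71 replicate 2, against 63.01 and 69.52 TPM in the controls. Of the 10 genes, Cyth4 was nearest to the shared profile, at 0.015, and Arhgdib furthest, at 0.239. A likeness over 3 libraries is a description only.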

How the data were processed

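Bulk RNA of SCC7 tumours was measured in 2 anti-CD71 and 2 control libraries. The authors deposited TPM values per RefSeq transcript, in hundredths, summing to 999999.29, 999998.88 and 1000000.86 in the complete libraries. BGI extracted the RNA in TRIZOL and made the libraries, per the labels' protocols. The submitters' processing notes name the build GRCm38.p6, and the program behind the TPM is not given in the sources used here. Transcripts were summed to genes with a RefSeq table of that build, which matched 58425 of 59881 transcripts, and 1744 copies at a second locus were added to their gene. Over 4 libraries, a gene was compared over its listed transcripts where these carried at least 90% of its TPM. The partial file held 22.69% of the transcripts, and its unfinished last line was left out.

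Genes were compared on log2(TPM + 1) by limma 3.58.1 (R 4.3.3) with a trend of the variance prior on the level, for genes with at least 1 TPM in 2 libraries, and Benjamini-Hochberg adjustment over all tested genes with calls at 0.05. This scale understates the change of low genes. The fit over 3 complete libraries has 1 treated library, whose spread is taken to equal that of the controls. For genes tested in 4 libraries, log2 differences had an SD of 0.294 within the anti-CD71 group and of 0.222 within controls. The members and lists were chosen with earlier results of these data known. Named in the text are all members and tested paralogues, in each other list the 3 genes with the largest called difference (or the smallest p where none was called), the 5 genes of most similar profile, and exceptions marked there. The other lists were cell type markers. The alternatives were the pseudocount, filter, scaling, leaving out keratinocyte and hair genes, variance trend, listed share, replicate block and leaving out each library.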

Additional observations from a re-analysis of the deposited data

How the results depend on the processing

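The median log2 difference of the 10 genes over the 3 complete libraries stayed between -0.95 and -0.78, and that of the 4 genes over 4 libraries between -0.85 and -0.70, under every alternative run. Single differences ran from -1.09 to -0.47 and from -0.94 to -0.52, and none changed sign. Calls were less stable. With no filter on low values, a filter of 1 TPM in 1 library and no trend, limma called 0 genes (3401 at an unadjusted p under 0.05), 72 and 35 over the 3 complete libraries, against 343, and 1, 8 and 4 over 4 libraries, against 67. Pathway list genes called were 0 under each of these in both comparisons, against 33 and 3. Counting any listed transcript gave 4 called genes and 0 list genes over 4 libraries. Leaving out keratinocyte and hair genes gave 315 called genes and 31 list genes over the 3 complete libraries and 79 and 3 over 4, with 8 of 10 and 4 of 4 members called. The cause of these changes was not tested. Leaving out each library gave 1 to 96 called genes and 0 to 4 list genes over 4 libraries. Over 3 complete libraries, leaving out a control leaves no residual degrees of freedom, so there is a value and no test. No paralogue was called under the alternatives run.

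With the replicate number as a block, limma called 3 genes, 0 list genes and 0 of the 4 members over 4 libraries. Deviations of same-numbered libraries from their group means had a correlation of -0.006, so the numbers gave no sign of pairing. The precision of low TPM is limited by a depth that is unknown.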
